A study of Canis lupus familiaris with 26 samples.

Results

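The endothelial marker genes VWF, KDR, CDH5, ENG and CD34 were followed through the canine corpus luteum (CL), the transient gland that secretes progesterone after ovulation. They are 5 of the 19856 genes in the count files and were chosen by name as widely used markers of blood vessel endothelium, with earlier results of these data known. Their Ensembl identifiers are ENSCAFG00000015228 (VWF), ENSCAFG00000002079 (KDR), ENSCAFG00000020413 (CDH5), ENSCAFG00000020106 (ENG) and ENSCAFG00000011722 (CD34). The pairing of symbol and identifier came from the study's tables of genes called in some contrast, and all 5 are on its day 30 list of genes lower after treatment, so that direction is not independent evidence here. KDR, CDH5 and CD34 are also on its list of genes higher in the mature CL, so their rise in controls is not independent evidence either.

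RNA-Seq was performed on CL of 26 bitches of various breeds, each giving 1 library. Treated dogs received 10 mg/kg firocoxib (Previcox), an oral inhibitor of the prostaglandin synthase COX2 (PTGS2), daily from ovulation until the ovaries were collected. Control dogs are described as given placebo in the treatment protocol and as untreated in the design text. Collection was on day 5 (4 control and 4 treated dogs) or on day 10, 20 or 30 (3 control and 3 treated dogs each), so that the control and treated arms held 13 dogs each. On days 5 and 10 the gland is still forming and, per the paper, at least partly independent of pituitary support (early CL below). On days 20 and 30 it is fully formed and comes to need that support (mature CL below). Whole luteal tissue was sequenced, and therefore fewer endothelial cells and less RNA per cell cannot be told apart in any comparison below.

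The CL is among the most vascular tissues of the body, and capillaries invade it from the former follicle wall as it forms. VWF encodes von Willebrand factor, the adhesive glycoprotein that endothelial cells store in Weibel-Palade bodies and release to capture platelets. KDR encodes VEGF receptor 2, the main signalling receptor for vascular endothelial growth factor A. CDH5 encodes VE-cadherin, the cadherin of the adherens junctions between endothelial cells, ENG encodes endoglin, a co-receptor for ligands of the transforming growth factor beta and bone morphogenetic protein family, and CD34 encodes a sialomucin on the surface of capillary endothelium and of blood progenitor cells.

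Library totals ranged from 12831896 to 22658950 reads assigned to genes. Levels are given as CPM, the read count divided by library size after scaling by trimmed mean of M-values (TMM) factors, which describe 1 gene across samples and do not rank genes against each other, because gene lengths were not used here. Every member was measured well above the filter of 10 reads in every sample, with 488 to 15096 reads. The library of day 20 treated replicate 3 stood apart, with the highest TMM factor (1.30) and the smallest share of reads in its 10 most abundant genes (8.60%, against a median of 17.6%). In correlation of log2 CPM over genes, day 20 treated replicate 2 was the least alike of its group. Its r was 0.74 with replicate 3 and 0.86 with replicate 4, against 0.93 between replicates 3 and 4. Day 5 treated replicate 1 (r of 0.82 to 0.88 with its group, others 0.92 to 0.95) was the least alike of its group too. So was day 10 treated replicate 1 (0.85 and 0.87, against 0.97 between the others). Summed levels of 6 of 12 listed steroidogenic luteal markers reached 453 to 2189 CPM in day 20 treated CL and 2506 to 4685 CPM in day 20 controls. Only these 6 carry an identifier, because the study called them in some contrast, so the sum does not describe the whole list.

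**Figure D1:**
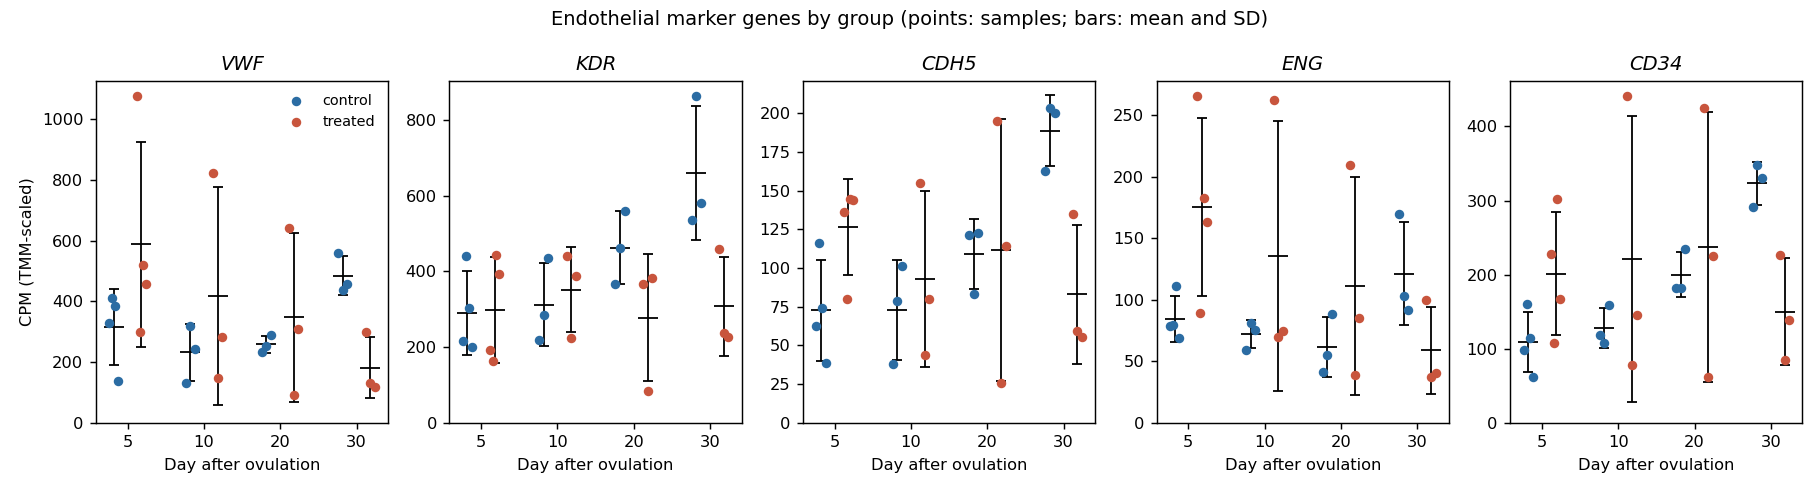
CPM of each member (y axis, TMM-scaled) by day after ovulation (x axis) in control (blue) and treated (red) dogs. Points are samples and black bars are the group mean and SD. On day 30 the treated points of VWF, KDR, CDH5 and CD34 lie below every control point, and in VWF, CDH5, ENG and CD34 the highest treated point of days 10 and 20 lies above every control point of its day.

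VWF in control dogs was 330.4, 413, 384 and 136 CPM on day 5 and 132, 319.8 and 245 CPM on day 10. It was 233, 252 and 289.6 CPM in day 20 controls and 558, 439 and 457 CPM in day 30 controls. The 3 day 30 controls were therefore higher than every other control sample. VWF in treated dogs stood at 1076, 298, 521 and 456 CPM on day 5 and 824, 146 and 284 CPM on day 10. The day 20 treated samples held 643, 90.3 and 308 CPM, and those of day 30 held 299.7, 131 and 116 CPM. Treated samples spanned from the lowest to the highest level in the study, an 11.9-fold range, and the highest value was that of day 5 treated replicate 1.

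KDR in control dogs was 216, 441, 303 and 201 CPM on day 5 and 219, 285 and 435 CPM on day 10. It was 367, 462 and 559 CPM in day 20 controls and 537, 864 and 580.1 CPM in day 30 controls. The day 30 controls held the highest level of all 26 samples. Treated dogs had 192, 164, 444 and 394 CPM on day 5 and 442, 225 and 389 CPM on day 10. The day 20 treated samples held 368, 84.9 and 382 CPM, and those of day 30 held 458, 238 and 227 CPM. Day 5 treated replicate 1, which had the highest VWF level of the study, was in KDR lower than 2 of the other samples of its group.

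CDH5 in control dogs was 62.4, 116, 74.0 and 38.3 CPM on day 5 and 37.8, 78.8 and 101 CPM on day 10. It was 121, 83.1 and 123 CPM in day 20 controls and 163, 203 and 200.4 CPM in day 30 controls, which again exceeded every other control sample. Treated dogs had 136, 80.1, 145 and 144 CPM on day 5 and 155, 43.7 and 79.7 CPM on day 10. The day 20 treated samples held 195, 25.5 and 114 CPM, and those of day 30 held 135, 59.4 and 55.1 CPM. Its lowest level, like those of VWF, KDR and CD34, was in day 20 treated replicate 3.

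ENG in control dogs was 78.6, 79.3, 111 and 68.7 CPM on day 5 and 59.4, 80.9 and 75.8 CPM on day 10. It was 41.6, 55.0 and 88.8 CPM in day 20 controls and 169, 103 and 91.7 CPM in day 30 controls, so the lowest control level of this gene was on day 20. Treated dogs had 266, 89.1, 182 and 164 CPM on day 5 and 263, 69.4 and 75.0 CPM on day 10. The day 20 treated samples held 209.7, 38.6 and 85.2 CPM, and those of day 30 held 99.5, 36.8 and 40.3 CPM. The 3 highest ENG levels in the study were all in treated dogs, 1 each on days 5, 10 and 20. They were in day 5 replicate 1, day 10 replicate 1 and day 20 replicate 2, each the least alike of its group by correlation.

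CD34 in control dogs was 98.0, 160.0, 114 and 62.3 CPM on day 5 and 119, 107 and 158 CPM on day 10. It was 183, 182 and 235 CPM in day 20 controls and 291, 347 and 330.2 CPM in day 30 controls, so that the mature controls were all above the early ones. Treated dogs had 228, 108, 301 and 166 CPM on day 5 and 441, 77.6 and 146 CPM on day 10. The day 20 treated samples held 425, 61.6 and 225 CPM, and those of day 30 held 227, 84.8 and 139 CPM.

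The 8 groups of each member were ordered by mean log2 CPM. Of 35 neighbouring pairs over the 5 members, 33 had overlapping samples and all 35 differed by less than 1 within-group SD, the largest step being 0.70 on the log2 scale (day 20 to day 30 controls in CD34). Sorting by the mean keeps neighbours close by construction, so these counts cannot show whether the groups differ. The within-group SD also pools the wider treated groups with the controls. Day 30 controls ranked highest in KDR, CDH5 and CD34, and day 5 treated CL ranked highest in VWF and ENG. Day 30 treated CL ranked lowest in VWF and ENG. An F test across the 8 groups (edgeR quasi-likelihood) called none of the 5, with adjusted p between 0.175 (ENG) and 0.361 (CDH5), while 16.1% of all genes passed it.

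Control samples of days 20 and 30 were compared with those of days 5 and 10, the question being how the CL transcriptome changes as the gland matures. KDR, CDH5 and CD34 rose in the mature CL, whereas VWF and ENG did not pass the test. CD34 rose 2.22-fold (log2 fold change 1.15, SE 0.22, edgeR adjusted p = 0.00356), with 117 ± 34.2 CPM in the 7 early controls and 261 ± 72.5 CPM in the 6 mature ones (mean ± SD). CDH5 rose 2.03-fold (1.02, SE 0.28, edgeR adjusted p = 0.0217) and KDR 1.86-fold (0.89, SE 0.24, edgeR adjusted p = 0.0176). VWF had a log2 fold change of 0.39 (SE 0.30, edgeR adjusted p = 0.346) and ENG of 0.20 (SE 0.26, edgeR adjusted p = 0.596). The call was made at P below 0.01 with a false discovery rate (FDR) below 0.1, and 10.1% of the 13503 genes tested were called higher at these limits. CD34 was the 1 member whose early and mature control samples did not overlap, as was the case in this direction for 3.39% of genes. Because KDR, CDH5 and CD34 are on the study's list for this same contrast, neither share is a neutral yardstick. When one spread was estimated from all 26 samples, 1 member (CD34) stayed called.

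Neighbouring days were then compared within the controls. From day 20 to day 30 ENG had a log2 fold change of 0.95 (SE 0.30, edgeR adjusted p = 0.567), VWF of 0.89 (SE 0.38) and CD34 of 0.67 (SE 0.29), with the same adjusted p. These 3 of 5 had an unadjusted P below 0.05 with a higher level, against 2.22% of all genes, but none passed the call. The same day 30 controls entered the study's day 30 list that holds all 5 members. High day 30 controls were thus favoured beforehand, and the share over all genes is not a neutral yardstick here. From day 10 to day 20 ENG had a log2 fold change of -0.20 (SE 0.30), and CD34 one of 0.66 (SE 0.29, edgeR adjusted p = 0.152).

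The same contrast of days 20 and 30 over days 5 and 10 was made in treated dogs. None of the 5 was called by edgeR, DESeq2 or limma voom, while edgeR called 3.11% of genes lower. No member had an unadjusted P below 0.05 in edgeR, where 12.3% of genes did with a lower level and 7.34% with a higher one. VWF (-0.94, SE 0.52) and ENG (-0.88, SE 0.47) had the most negative log2 fold changes. KDR (-0.11, SE 0.37), CDH5 (-0.18, SE 0.42) and CD34 (-0.10, SE 0.47), the 3 members called in controls, lay near 0 with wide errors. Without day 20 treated replicate 2, the highest of its group in VWF, CDH5, ENG and CD34, ENG was called (-1.38, edgeR adjusted p = 0.0541).

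**Figure D2:**
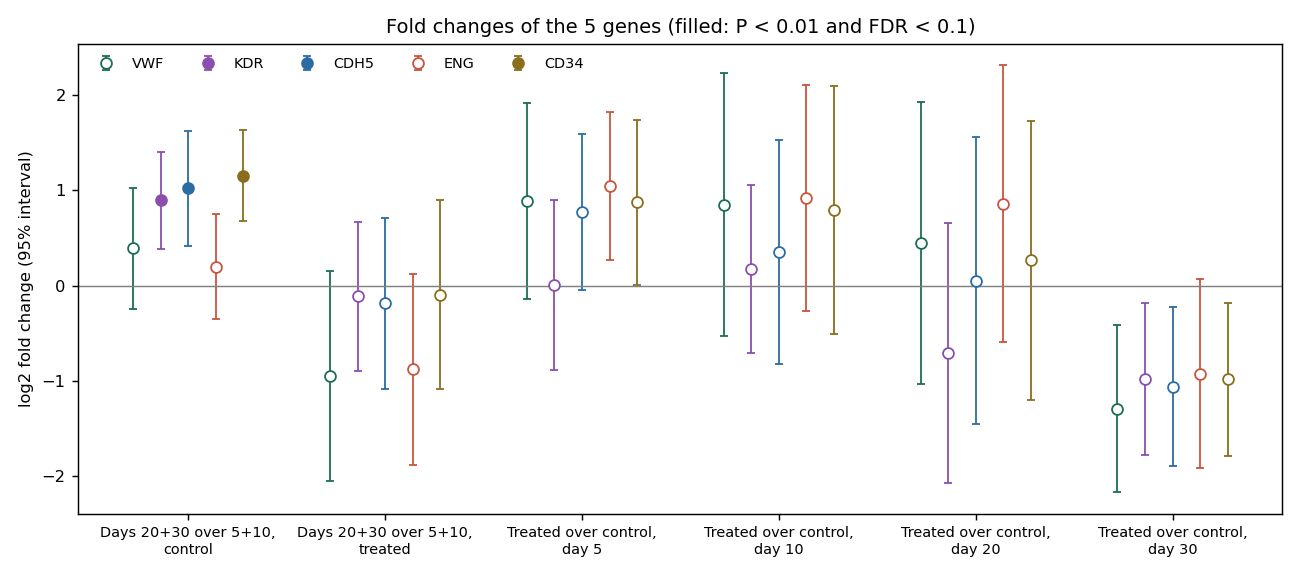
Log2 fold change of each member (y axis) in 6 comparisons (x axis), with 95% confidence intervals from the edgeR fit and filled points where P was below 0.01 and FDR below 0.1. KDR, CDH5 and CD34 in controls are the filled points, and all 5 members lie below 0 on day 30.

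Ratios between members were compared between early and mature controls. ENG over CD34 had a mean log2 ratio of -0.53 ± 0.50 (SD, n = 7) on days 5 and 10 and of -1.61 ± 0.47 (SD, n = 6) on days 20 and 30, a difference of -1.08 (two-sided exact permutation p = 0.00466, adjusted over 10 pairs 0.0350). CDH5 over ENG moved by 0.99 (exact permutation p = 0.0105, adjusted 0.0350) and VWF over CDH5 by -0.62 (exact permutation p = 0.00816, adjusted 0.0350). KDR over ENG (0.83) and VWF over CD34 (-0.72) also passed 0.05 after adjustment. Each of these 5 ratios pairs KDR, CDH5 or CD34 with VWF or ENG. The study listed KDR, CDH5 and CD34 as higher in the mature CL of these controls. Shifts against VWF and ENG were thus favoured beforehand, and these p-values are not independent evidence. Ratios among KDR, CDH5 and CD34 moved by -0.25 to -0.09, and none of those 3 passed. The count of 5 of 10 ratios fell to 0 in 9 of 13 fits that left out a control sample, while every ratio kept its sign.

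**Figure D3:**
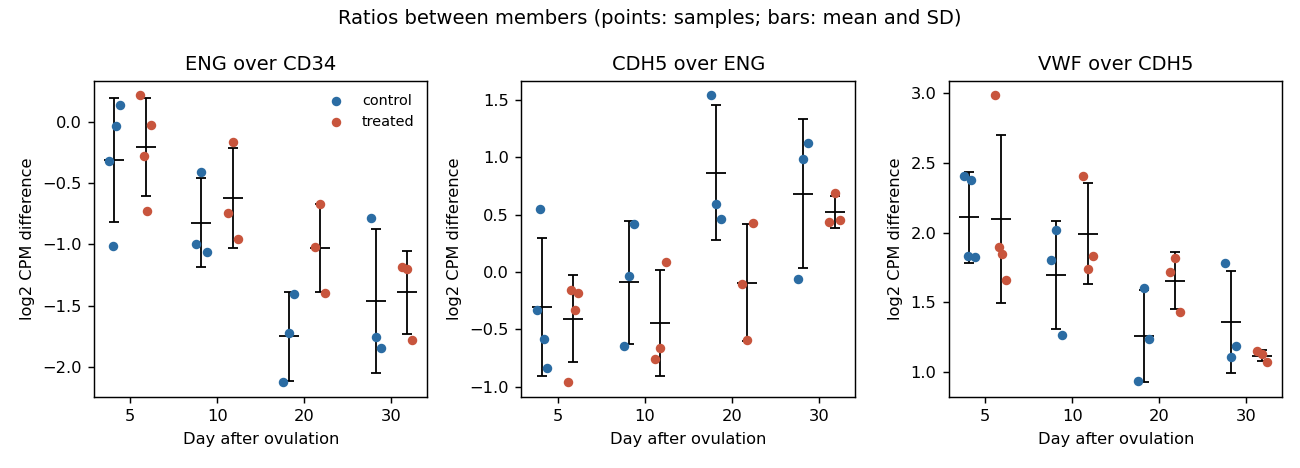
Log2 difference in CPM between 2 members (y axis) by day after ovulation (x axis), with points as samples and bars as mean and SD, control in blue and treated in red. Control means of ENG over CD34 are -0.31 and -0.82 at days 5 and 10, against -1.75 and -1.46 at days 20 and 30.

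Treated over control on day 5 called none of the members, and none of the other genes either (0% of 13651 were called higher). All 5 log2 fold changes were above 0, and ENG (1.05, SE 0.35, edgeR adjusted p = 0.412) and CD34 (0.87, SE 0.39, the same adjusted p) had an unadjusted P below 0.05, as did 8.71% of genes in this direction. VWF (0.89, SE 0.46) and CDH5 (0.77, SE 0.37) did not reach that limit, and KDR had a log2 fold change of 0.01 (95% interval -0.88 to 0.90). Control and treated samples overlapped in every member. Summed levels of 7 pericyte and smooth muscle markers were 451 to 642 CPM in day 5 controls and 921 to 2913 CPM in day 5 treated CL, and their part in the values of ENG and CD34 was not tested. DESeq2 called 4 of those 7 markers higher and none of the members, where it called 0.615% of all genes higher. These 7 of 10 listed markers carry an identifier only because the study called them in some contrast of these samples. Their count therefore cannot be read against that share or against the members.

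On day 10 all 5 log2 fold changes were above 0, from 0.17 (KDR, SE 0.39) to 0.92 (ENG, SE 0.52), and no member had an unadjusted P below 0.05 (edgeR; 0.373% of genes did with a higher level). Day 10 treated replicate 1 decided these values: without it VWF was -0.11, KDR -0.02, CDH5 -0.23, ENG 0.01 and CD34 -0.19.

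Day 20 treated CL differed from controls by -0.71 (SE 0.59) in KDR, 0.44 (SE 0.64) in VWF, 0.05 (SE 0.65) in CDH5, 0.86 (SE 0.63) in ENG and 0.26 (SE 0.63) in CD34. None had an unadjusted P below 0.05 in edgeR and none was called by DESeq2, against 11.7% of genes with P below 0.05 and a higher level. The 3 treated samples lay on both sides of the controls, with replicate 2 above and replicate 3 below all 3 controls in VWF, ENG, CDH5 and CD34. Without replicate 3, the library with the highest TMM factor, VWF was 0.89, CDH5 0.52, ENG 1.26, CD34 0.71 and KDR -0.28, none of them called. Without replicate 2, the least alike of its group by correlation, they were -0.35, -0.62, 0.029, -0.46 and -0.97 in the same order, again with none called. The signs of VWF, CDH5 and CD34 thus turned with the sample left out.

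On day 30 all 5 members had lower mean levels in treated CL, but none passed the call in edgeR. VWF had the most negative value (-1.29, SE 0.38, edgeR adjusted p = 0.599), with 485 ± 64.2 CPM in controls against 182 ± 102 CPM in treated CL (mean ± SD, n = 3 each). CDH5 followed (-1.06, SE 0.36), then CD34 (-0.98, SE 0.35) and KDR (-0.98, SE 0.35), each with the adjusted p of VWF. ENG (-0.92, SE 0.43, edgeR adjusted p = 0.628) was the 1 member whose groups overlapped. Of the 5, 4 had an unadjusted P below 0.05 and a lower level, where 2.62% of genes did. The same 4 had treated samples all below the controls, where 5.25% of genes did. As the study listed all 5 as lower from these same dogs, both counts were favoured beforehand. Neither share is a neutral yardstick here. No gene of the 13196 was called lower by edgeR (0%), whereas DESeq2 called 0.485% of genes lower and VWF among the members (-1.38, DESeq2 adjusted p = 0.0760). The study also used DESeq2, and its day 30 list of genes lower after treatment holds all 5 members. Here the other 4 were not called by DESeq2, with DESeq2 adjusted p from 0.167 (CDH5) to 0.393 (ENG). The source of this difference from the study was not tested. Without day 30 treated replicate 2, the highest treated sample in every member, ENG was -1.60 and VWF -1.93, with none of the 5 called.

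The treatment difference on day 30 was compared with that on earlier days in one fit of all 26 samples. All 5 members are on the study's day 30 list of genes lower after treatment, so negative values were favoured beforehand. The shares over all genes given with these values are therefore not a neutral yardstick. Against day 5 the difference of log2 fold changes was -2.31 (SE 0.84) for VWF, -2.10 (SE 0.74) for ENG, -1.99 (SE 0.76) for CD34, -1.98 (SE 0.74) for CDH5 and -1.14 (SE 0.65) for KDR. The first 4 had an unadjusted P below 0.05, as did 5.59% of genes in this direction, and the edgeR adjusted p was 0.616 for each of them. Against day 10, VWF, ENG and CD34 had an unadjusted P below 0.05 (2.78% of genes did), and against day 20 ENG alone did (-1.89, SE 0.79, edgeR adjusted p = 0.326, where 8.22% of genes did). These values moved most when 1 library was left out. Without day 10 treated replicate 1 the differences against day 10 went from -2.26 to -1.30 for VWF, from -1.96 to -1.04 for ENG and from -1.89 to -0.91 for CD34, and without day 20 treated replicate 2 that of ENG against day 20 went to -1.04, none of these 4 with an unadjusted P below 0.05. Averaged over the 4 days the treatment effect was -0.41 (SE 0.24) for KDR and between 0.00 and 0.44 for the other members, with no member at P below 0.05 in edgeR or called by DESeq2, against 11.6% of genes with P below 0.05 and a higher level.

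Other genes of the vessel wall were described from lists, of which only the genes that the study called in some contrast of these samples carry an identifier. These genes were thus selected on the outcome, and their counts describe them alone and cannot be read against the shares over all genes. Of 38 other endothelial markers 16 could be followed, and in control maturation 7 were called higher and 2 lower, where 10.1% of all genes were called higher and 10.4% lower. FLT1, VEGF receptor 1, rose (1.40, SE 0.29, edgeR adjusted p = 0.00491), as did ESM1, a secreted proteoglycan of sprouting endothelium (1.31, SE 0.34, edgeR adjusted p = 0.0153), and FLI1, an ETS transcription factor (0.70, SE 0.20, edgeR adjusted p = 0.0229). PROCR, the endothelial protein C receptor, fell by 1.73 (SE 0.32, edgeR adjusted p = 0.00296). On day 30 none of the 16 was called by edgeR, 7 had an unadjusted P below 0.05 with a lower level, and DESeq2 called 3 lower. The most negative among those with the smallest P were PLVAP of endothelial diaphragms (-2.24, SE 0.69) and PODXL, a sialomucin related to CD34 (-1.48, SE 0.38), both with an edgeR adjusted p of 0.599.

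Around KDR, 3 of 4 genes of the VEGF axis with an identifier rose in control maturation: FLT1, NRP1, the VEGF co-receptor neuropilin 1 (0.64, SE 0.20, edgeR adjusted p = 0.0378), and FLT4, VEGF receptor 3 (1.03, SE 0.34, edgeR adjusted p = 0.0438). The ligand gene VEGFD fell by 1.48 (SE 0.40, edgeR adjusted p = 0.0180). Around ENG, ACVRL1, the activin receptor-like kinase that pairs with endoglin, fell by 1.10 (SE 0.25, edgeR adjusted p = 0.00891) and ID3, a target gene of this pathway, by 1.84 (SE 0.60, edgeR adjusted p = 0.0423), while SMAD1 and SMAD9, which carry the signal to the nucleus, rose by 0.48 (SE 0.14) and 0.84 (SE 0.27). F8, coagulation factor VIII, which VWF carries in plasma, rose (1.76, SE 0.41, edgeR adjusted p = 0.00950). In the Notch list, 3 of 4 genes rose, EFNB2 (0.85, SE 0.21) and HEY1 (0.84, SE 0.22) among them.

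Markers of other cell types, selected in the same way, were followed beside the members. In control maturation 3 of 6 steroidogenic luteal markers rose, as KDR, CDH5 and CD34 did, with CYP19A1, the aromatase that makes oestrogens, at 2.23 (SE 0.38, edgeR adjusted p = 0.00173), and 2 of 4 lymphatic markers rose while 1 fell. All 7 fibroblast markers fell, and their summed level went from 6577 to 21338 CPM in the early controls to 2897 to 7299 CPM in the mature ones. The 3 leukocyte markers with an identifier and 2 of 5 oocyte markers also fell.

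Of the oocyte markers 4 of 5 were called higher in day 20 treated CL by edgeR, where 0.102% of all genes were. As genes selected on the outcome, they cannot be read against that share. Their summed level was 148 to 258 CPM, against 4.57 to 9.14 CPM in day 20 controls. On day 30 none of the 5 was called by edgeR or DESeq2, 2 had an unadjusted P below 0.05 with a higher level, and the summed level was 5.93 to 128 CPM in treated CL against 6.64 to 23.3 CPM in controls. ALAS2, the erythroid enzyme of haem synthesis and the 1 platelet or erythroid marker with an identifier, was at 0.0580 to 3.53 CPM in day 30 treated CL and at 0 to 0.313 CPM in controls, and was not called (3.34, SE 1.64, edgeR adjusted p = 0.647). None of the fibroblast, leukocyte, pericyte, steroidogenic or lymphatic markers was called by edgeR on day 30, and DESeq2 called 1 lymphatic marker higher. The part of cell composition in the members' values was not tested.

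The levels of the members were correlated across dogs. Over the 26 samples CDH5 and CD34 had Pearson's r = 0.91 (Spearman's rho = 0.93) and VWF and ENG r = 0.90 (rho = 0.93), both with a permutation p of 1e-05, the smallest 100000 resamples can give, and an adjusted permutation p of 2.5e-05 over the 10 pairs. The weakest pairs were KDR and ENG (r = 0.35, rho = 0.38, permutation p = 0.0757) and VWF and KDR (r = 0.52, rho = 0.43, permutation p = 0.00672, adjusted 0.00747). The median r over the 10 pairs was 0.76, and 5.42% of all pairs of genes had an r at least as high. Leaving out the 2 samples farthest from the median of the first gene, the 10 values ranged from 0.24 (KDR and ENG) to 0.92 (CDH5 and CD34).

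Taken as deviations from the group means, which removes day and treatment, all 10 pairs were positive, between 0.60 (KDR and ENG) and 0.90 (CDH5 and CD34), with a median of 0.85, and 3.73% of all pairs of genes had an r at least as high as this median. Permuting within groups gave p from 1e-05 to 0.0282, the latter also after adjustment. The deviations of treated samples had a median r of 0.92 and those of controls of 0.60. Treated dogs also spread more within groups: the SD of log2 CPM was 0.40 for ENG and 0.37 for CD34 in controls against 0.93 and 1.02 in treated dogs, and the variance ratio of the 5 members, 2.94 to 7.59, lay beside a median of 2.46 over all genes. The samples share library preparation and the scaling of each library enters all genes of a sample.

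**Figure D4:**
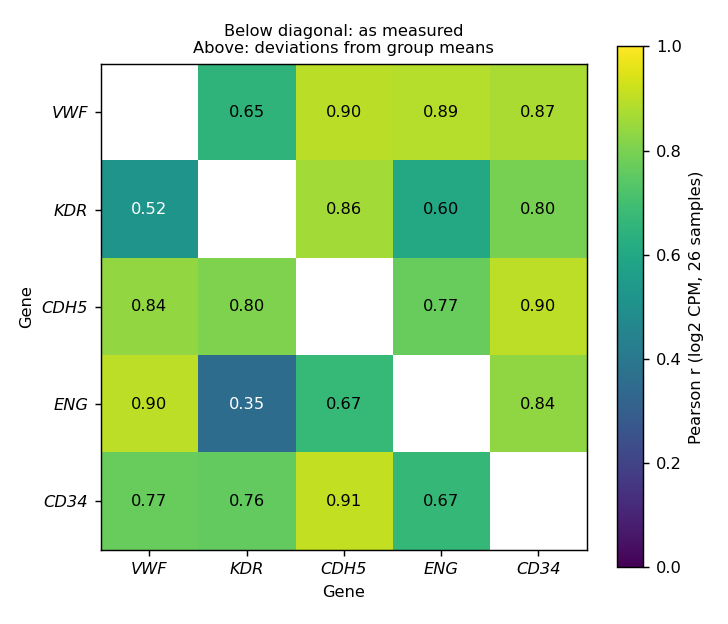
Pearson's r between members (both axes) over 26 samples, on log2 CPM as measured (below the diagonal) and as deviations from the group means (above it). Below the diagonal VWF, CDH5, ENG and CD34 run from 0.67 to 0.91 among themselves. KDR has 0.80 with CDH5, 0.76 with CD34 and 0.52 with VWF. KDR with ENG is the lowest cell on both sides.

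Each member had its own nearest genes among the 14171 compared. CD34 was the gene most like CDH5 of all (r = 0.91), and ENG was at rank 3 for VWF. KDR was most like ZNF366, a zinc finger gene (r = 0.93), and among genes with a symbol ETS1, an ETS transcription factor, came next (r = 0.87, rank 4 of all genes). CD34 was most like DAPK2 (r = 0.95) and THSD1 (r = 0.92). Ranked by mean r with the 5 members, 4342 genes carrying a symbol were led by DYSF, dysferlin of membrane repair (0.82), RASIP1, a regulator of endothelial lumen formation (0.81), PCDH1 (0.80), SYT7 (0.79), ARHGAP23 (0.79) and EPAS1, the hypoxia-inducible factor 2 alpha (0.79). SLCO2A1, the prostaglandin transporter, was seventh (0.77), and 2 of the first 15 were on the list of other endothelial markers, RASIP1 and PODXL. Opposite to them were RPS24, NACA and RPL7, genes of the ribosome and of nascent protein handling, with mean r of -0.73, -0.70 and -0.67, and TAGAP (-0.70) and GALNT3 (-0.68).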

How the data were processed

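Counts were deposited by the authors as whole reads per gene for each of 26 samples. Per the paper's methods and the submitters' processing notes, they made them from single-end polyA libraries mapped to the CanFam3.1 build by STAR, with featureCounts assigning reads to genes. The kit does not mark strand, so reads of a gene and of an overlapping antisense gene cannot be told apart, and versions are not given in the sources used here. Genes were kept where the mean of some group reached 10 reads, and tested with the edgeR (4.0.16) quasi-likelihood test in R 4.3.3, TMM factors and Benjamini-Hochberg adjustment over all genes, on the samples of each comparison. Interactions were fitted on all 26 samples. A call needed P below 0.01 and FDR below 0.1, the study's own limits. The study used DESeq2, and here DESeq2 (1.42.0) and limma voom (3.58.1) were alternatives. Correlations used log2 CPM with a prior count of 2 and 100000 permutations. The scripts were tested on simulated data. The members and gene lists were chosen with earlier results of these data known.

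The text names the 5 members, up to 4 genes of a list with the smallest P, and the genes most like the members. Symbols were known for 4355 of 4888 identifiers in the study's tables of called genes and for no other gene. No genome of the files' build was used, so no sequence or position is given. Library totals of 12831896 to 22658950 reads put counting error well below the spread between dogs, and p-values measure the spread between dogs. No 2 samples of a group agreed within sampling noise. Replicate numbers are names of dogs within a group, and 4 samples that the authors removed were not analysed here.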

Additional observations from a re-analysis of the deposited data

Results flagged for a closer look

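Groups of 4 to 10 samples were searched for a single sample far from the others, by Dixon's 95% limits. Of 30 groups examined 3 had one, where chance gives about 1 in 20. CDH5 in day 5 treated replicate 2 was 80.1 CPM, against 136 CPM in the nearest of the other samples of its group. ENG in day 5 control replicate 4 was 111 CPM, against 80.9 CPM in the next of the early controls. ENG in day 20 treated replicate 2 was 209.7 CPM, against 99.5 CPM in the next of the mature treated samples. No treatment by day interaction of a member passed the call.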

How the results depend on the processing

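Under the alternatives to the edgeR fits the number of members called changed in 2 comparisons: 1 member (CD34) for control maturation with one spread from all 26 samples, and 1 member (VWF) for day 30 by DESeq2. The cause of the changes was not tested. Each member had at least 488 reads in every sample.

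Sign changes were confined to log2 fold changes that were not called. By library size alone KDR was 0.015 and CD34 0.049 in treated maturation, and KDR was -0.0262 on day 5. By limma voom KDR was -0.040 on day 5, and CDH5 -0.34 and CD34 -0.10 on day 20. Without the filter KDR was -0.00379 on day 5. The median correlation of the members was 0.85 for deviations from group means.

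With the replicate number as a block the members called were 3 for control maturation and 0 in the other comparisons, so that no call changed. Under the block KDR was 0.091 and CD34 0.23 in treated maturation, and VWF -0.14, CDH5 -0.49 and CD34 -0.33 on day 20. The numbers mark no shared animal, and same-numbered samples correlated between -0.58 and 0.51 in their deviations. For day 10 the block could not be fitted, as its groups share 1 number.

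Leaving out 1 sample at a time gave these ranges where a sign or count changed, or a value fell close to 0. Control maturation: ENG -0.065 (without day 30 control replicate 2) to 0.35. Treated maturation: KDR -0.29 to 0.076, CDH5 -0.51 to 0.014, CD34 -0.49 to 0.19, and 0 to 1 members called (ENG, without day 20 treated replicate 2). Day 5: KDR -0.25 to 0.31. Day 10: VWF -0.11 to 1.22, KDR -0.025 to 0.47, CDH5 -0.23 to 0.67, CD34 -0.19 to 1.17. Day 20: VWF -0.35 to 0.89, CDH5 -0.62 to 0.52, ENG 0.029 to 1.26, CD34 -0.46 to 0.71. Treatment averaged over days: VWF -0.051 to 0.32, CDH5 -0.17 to 0.13, CD34 -0.042 to 0.34. Ratios that passed: 0 to 7.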
